A study of Mus musculus with 8 samples.

Results

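Transcripts of 9 genes of the complement system were followed in cultured mouse colon fibroblasts with and without the transcription factor Zeb1. The genes were C3, C4b, Cfb, Cfd, C1ra, C1s1, Serping1, Cd55 and Masp1, chosen by name among 45321 genes. Polyadenylated RNA was sequenced from 8 cultures of fibroblasts that had grown out of colon tissue, all listed as untreated. Fib-Ctrl cultures carried Zeb1 flox/flox, an intact gene with loxP sites, and Fib-dZeb1 cultures carried Zeb1 del/del. The study describes switching on Cre recombinase in vitro to delete the gene, so genotype and exposure to Cre cannot be told apart here. Each genotype had 2 lines with 2 replicates each, and nothing in the labels says that lines with the same number shared an animal. P-values over the 8 libraries treat the replicates of a line as independent and may partly measure technical spread. Age and sex of the donor animals are not given in the labels.

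Complement is a cascade of plasma and tissue proteins that tags particles and cells for removal. In the classical route the proteases C1r and C1s are bound to C1q, and C1s cleaves C4 and C2. In the lectin route Masp2, a protease of the Masp family, does so. Both routes, and the alternative route driven by factor B and factor D, meet at C3, the central component. Most of the plasma pool comes from the liver, but fibroblasts also make several components, and the study used C3 protein to mark inflammatory cancer-associated fibroblasts.

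Library totals lay between 18852422 and 25540529 reads. Zeb1 itself lay between 92.1 and 98.5 CPM in the Fib-Ctrl libraries (reads scaled to library size with TMM factors) and at 11.4 to 18.3 CPM after deletion, so the genotypes did not overlap. Its log2 fold change was -2.73 (SE 0.15, adjusted p = 4.8e-05, edgeR quasi-likelihood test). All 9 listed fibroblast markers had reads, with a summed level of 41600 to 52500 CPM for Fib-Ctrl against 12600 to 24200 CPM for Fib-dZeb1. Most of that sum was collagen, with Col1a1 at 19500 to 26400 CPM against 4190 to 10100 CPM. Col1a2 and Pdgfrb (311 to 492 against 104 to 212 CPM) were also lower in Fib-dZeb1 without overlap. Pdgfra (283 to 566 against 268 to 584 CPM), Vim (2700 to 4640 against 2790 to 3610 CPM), Thy1, Dcn, Lum and Col3a1 overlapped between genotypes. The macrophage markers Adgre1 and Tyrobp had no reads in any library, and the 8 genes of that list summed to 9.34 to 20.8 CPM for Fib-Ctrl against 8.2 to 10.5 CPM for Fib-dZeb1. The 7 adipocyte markers summed to 11.9 to 56.8 CPM and 15.2 to 57.6 CPM, mostly from Pparg and Lpl, and Cidec had no reads. The 7 epithelial markers summed to 1.98 to 4.68 CPM and 4.58 to 26.1 CPM, the 4 mesothelial markers to 0.0582 to 0.916 CPM and 1.58 to 8.67 CPM, and the 5 endothelial markers to 1.28 to 2.98 CPM and 1.05 to 3.92 CPM. In such bulk RNA, fewer cells of a type and less RNA per cell cannot be told apart.

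Promoter sequences of RefSeq (GRCm38.p6) covered 5 of the 9 genes: C3, C1ra, C1s1, Cfd and Cd55. The 250 bases before the start site are shown for C3, the gene with the widest range of levels, and for C1s1, which moved together with its neighbour C1ra. Capitals mark CAGGTA, an E-box form that ZEB proteins can bind, and TTNNGNAA, a pattern of sites for C/EBP proteins, each searched on both strands.
C3, chr17:57228137-57228386, minus strand: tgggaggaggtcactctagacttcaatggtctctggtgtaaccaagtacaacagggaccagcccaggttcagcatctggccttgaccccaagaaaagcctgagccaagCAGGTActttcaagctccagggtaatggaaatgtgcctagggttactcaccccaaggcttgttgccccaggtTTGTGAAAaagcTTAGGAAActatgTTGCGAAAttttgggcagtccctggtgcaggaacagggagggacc
C1s1, chr6:124542360-124542609, minus strand: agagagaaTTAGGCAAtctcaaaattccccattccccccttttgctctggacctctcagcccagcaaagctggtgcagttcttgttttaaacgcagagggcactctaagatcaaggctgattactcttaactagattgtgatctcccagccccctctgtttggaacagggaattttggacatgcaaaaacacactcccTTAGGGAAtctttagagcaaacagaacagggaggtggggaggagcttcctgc
The C3 window held CAGGTA at -142 from the start site and TTNNGNAA at -70, -58 and -45, with no overlap between matches. The C1s1 window shown held TTNNGNAA at -242 and -52 and neither E-box form. Of 32851 promoter windows of this length, 10% held CAGGTA, 17.2% held CAGGTG and 36.8% held TTNNGNAA. Neither window held TTCNNNGAA, a pattern of STAT sites present in 7.02% of windows, GAAANNGAA, a pattern of interferon response elements present in 7.13%, or the NF-kB consensus, present in 7.25%. The C1ra window of RefSeq overlaps the first exon of the GENCODE annotation and is not shown. It held TTNNGNAA at -72 and -29. RefSeq gives a further window for C1s1, chr6:124542322-124542571, in which TTNNGNAA matched only at -90, so the positions depend on the start site taken. The Cfd window held CAGGTG at -201, and the Cd55 window held none of these motifs.

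Among the 9 genes, C1s1, C3, C1ra and Masp1 carried nearly all transcripts, and their order differed between lines. TPM, which corrects for transcript length, was used to compare genes. In the replicates of Fib-Ctrl line 1, C1s1 stood at 219 TPM or above, C3 at 135 and 237 TPM, C1ra at 109 and 115 TPM, and Masp1 at 84.3 and 66.5 TPM. C3 and C1s1 overlapped there, whereas C1ra and Masp1 did not. In Fib-Ctrl line 2, Masp1 came first with 128 and 138 TPM, followed by C1s1 with 45.4 and 37.2 TPM, C1ra with 19.6 and 19.7 TPM, and C3 with 0.828 and 0.18 TPM. These 4 genes did not overlap with each other in that line. Over the 4 Fib-dZeb1 libraries, Masp1 lay between 71.8 and 115 TPM, C1s1 between 40.2 and 67.3 TPM, C1ra between 18.4 and 42.5 TPM and C3 between 12.5 and 30.5 TPM. Masp1 lay above the others in those libraries, and C1ra overlapped with both C1s1 and C3. The summed level of the 9 genes was 578 and 639 TPM in Fib-Ctrl line 1, and 164 to 240 TPM in the other 6 libraries. The remaining 5 genes stayed at or below 8.13 TPM everywhere.

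**Figure D1:**
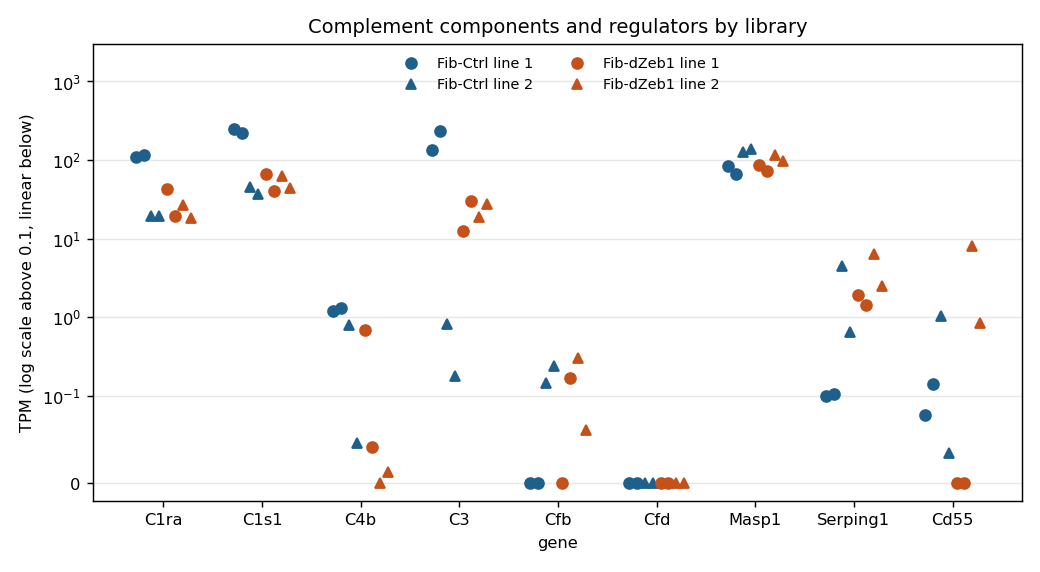
TPM of the 9 complement genes in each of the 8 libraries, on an axis that is logarithmic above 0.1 TPM and linear below. Blue marks are Fib-Ctrl and orange marks Fib-dZeb1, circles are line 1 and triangles line 2. C3 ranges from 0.18 to 237 TPM, Masp1 only from 66.5 to 138 TPM, and Cfd sits at 0 throughout.

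Of the 9 genes, 5 passed the filter on low counts and were tested: C3, C1ra, C1s1, Masp1 and Serping1. C4b, Cfb, Cfd and Cd55 did not pass. None of the 5 was called between genotypes at an adjusted p of 0.05 by the edgeR quasi-likelihood test, beside 7.54% of 12963 tested genes called higher and 8.65% called lower in Fib-dZeb1. At an unadjusted p of 0.05, 2 of the 5 passed, C1ra and C1s1, and DESeq2 and limma called 0 of them. For 0 of the 9 genes did the libraries of both genotypes separate without overlap, against 24.3% of the tested genes.

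C3 (chr17:57203970-57228136, minus strand, GRCm38) gives rise to the anaphylatoxin C3a and the opsonin C3b. It reached 398 and 744 CPM in Fib-Ctrl line 1 but only 2.56 and 0.568 CPM in Fib-Ctrl line 2. In Fib-dZeb1 it stood at 28.5 and 87.3 CPM in line 1 and at 50.9 and 77 CPM in line 2. The Fib-dZeb1 libraries therefore all lay in the gap between both Fib-Ctrl lines. The mean was 286 ± 358 CPM (SD, n = 4) for Fib-Ctrl against 60.9 ± 26.5 CPM (SD, n = 4) for Fib-dZeb1. The log2 fold change was -2.23 (SE 1.56, adjusted p = 0.357, edgeR).

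The direction of the genotype difference in C3 depended on how the libraries were averaged. The geometric mean of CPM, formed with 0.5 added, was 30.9 in Fib-Ctrl and 55.9 in Fib-dZeb1, the reverse of the order of the arithmetic means. The log2 fold change was 1.15 with limma on log2(TPM + 0.1), 1.04 with limma-voom and a correlation within lines, and 0.62 with a line block in edgeR. In the same order the adjusted p-values were 0.72, 0.82 and 0.896. The line block gives same-numbered lines of both genotypes a shared level, which the labels do not state. Leaving out Fib-Ctrl line 1 replicate 2 gave -1.14 (adjusted p = 0.667), and leaving out either library of Fib-Ctrl line 2 gave -2.65.

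**Figure D2:**
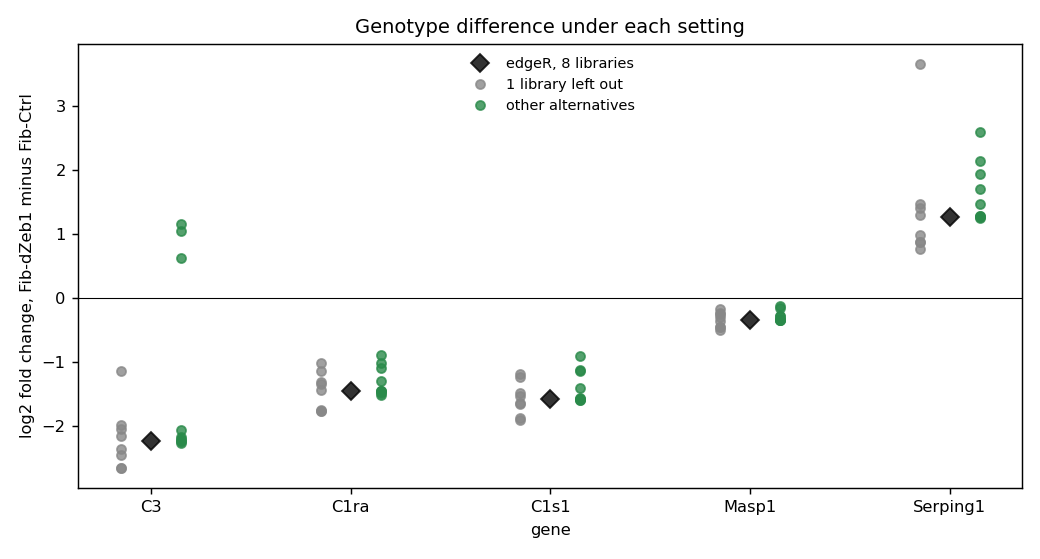
Log2 fold change of Fib-dZeb1 minus Fib-Ctrl for the 5 tested genes. Black diamonds are the edgeR fit on 8 libraries, grey circles leave out 1 library each and green circles are the other alternatives. C3 is the only gene of these with values on both sides of 0, from -2.65 to 1.15.

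The contrast between lines was far larger for C3 than the contrast between genotypes. Within Fib-Ctrl, line 2 lay below line 1 by a log2 fold change of -8.54 (SE 0.86, adjusted p = 0.0018, edgeR), a 365-fold ratio of the line means of 571 and 1.57 CPM. With 1 library left out it ranged from -9.97 (without Fib-Ctrl line 2 replicate 1) to -7.80 (without Fib-Ctrl line 2 replicate 2) and was called throughout. All 5 tested genes were called in this contrast, 3 lower and 2 higher in line 2, beside 17.0% of the tested genes. Within Fib-dZeb1, C3 differed between lines by 0.14 (SE 0.58, adjusted p = 0.91). Here edgeR called 0 of the 5 tested genes, beside 6.87% of the tested genes, and 1 of them, Masp1, passed an unadjusted p of 0.05. Another tool was not run for the line contrasts.

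Set against each other by line number, the cultures differed in C3 in opposite directions. In line number 1, Fib-dZeb1 lay below Fib-Ctrl by 3.30 on the log2 scale (SE 0.63, adjusted p = 0.00962, edgeR). In line number 2, Fib-dZeb1 lay above Fib-Ctrl by 5.39 (SE 0.79, adjusted p = 0.00345, edgeR). Both were called with each library left out. The first ranged from -4.32 (without Fib-dZeb1 line 1 replicate 2) to -2.71 (without Fib-dZeb1 line 1 replicate 1), and the second from 4.63 (without Fib-Ctrl line 2 replicate 2) to 6.81 (without Fib-Ctrl line 2 replicate 1). The difference of both contrasts was 8.69 (SE 1.01, adjusted p = 0.00301, edgeR). It stayed between 7.94 and 10.1 with each library left out, with adjusted p-values of 0.00181 to 0.0181. Line number 1 had 4 of the 5 tested genes called, beside 27.4% of the tested genes, and line number 2 had 2 called, beside 28.8%. The difference of contrasts was called for 3 of the 5, beside 15.3%. Since same-numbered lines are not tied to 1 animal by the labels, these contrasts describe pairs of cultures. Each sets 1 line against 1 line, so its p-value rests on the spread between replicates. The difference for C3 is also the Fib-dZeb1 line contrast (0.14) minus the Fib-Ctrl line contrast (-8.54), and so mainly restates the latter.

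**Figure D3:**
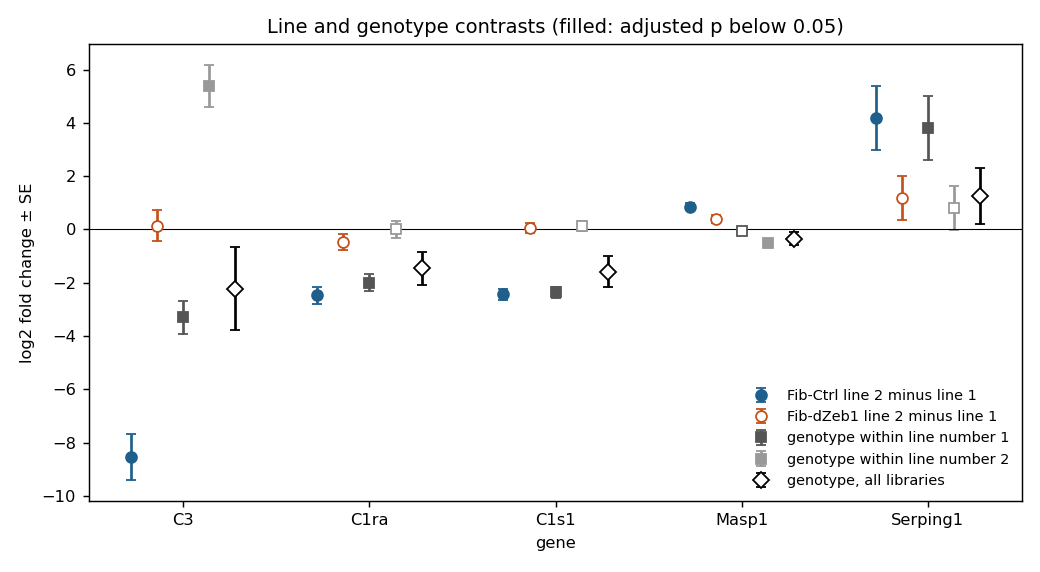
Log2 fold changes with their standard errors for the 5 tested genes in each line contrast and in the contrast of all libraries, with filled marks for an adjusted p below 0.05. For C3 the Fib-Ctrl line contrast sits at -8.54 and the Fib-dZeb1 line contrast at 0.14, and the genotype contrasts of the line numbers have opposite signs.

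Of the macrophage markers, Lyz2 was highest in the line with high C3. The 8 genes summed to 20.8 and 16.2 CPM in Fib-Ctrl line 1 against 10.4 and 9.34 CPM in Fib-Ctrl line 2, with Lyz2 at 13.2 and 6.28 CPM against 3.44 and 0.826 CPM, while Adgre1 and Tyrobp had no reads and Ptprc did not exceed 0.137 CPM. Without Lyz2 the other 7 genes summed to 7.6 and 9.93 CPM in Fib-Ctrl line 1, 6.93 and 8.52 CPM in Fib-Ctrl line 2, and 6.74 to 10 CPM in Fib-dZeb1, so the lines overlapped. The 7 adipocyte markers also differed between the Fib-Ctrl lines, with sums of 44.5 and 56.8 CPM against 12.5 and 11.9 CPM, of which Lpl made up 33.4 and 50.1 CPM against 4.54 and 4.39 CPM. The part of these markers' cell types in the C3 difference was not tested. The full-length coding transcript held 83.3% to 100% of the TPM of C3 in each library.

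The 5 protein-coding genes whose log2 CPM was most like that of C3 over the 8 libraries were Psd (Pearson r = 0.99), 2010111I01Rik (r = 0.984), Tpd52l2 (r = 0.98), Lifr (r = 0.98) and Gpr107 (r = 0.974). They were picked from all tested genes for this likeness, the libraries of a line are not independent, and no test was made. Psd had 15.3 and 15.4 CPM in Fib-Ctrl line 1, 2.39 and 1.7 CPM in Fib-Ctrl line 2 and 5.2 to 9.76 CPM in Fib-dZeb1. Lifr, a receptor chain for leukemia inhibitory factor and oncostatin M, had 61.2 and 69.5 CPM, then 11.5 and 8.83 CPM, and 23.5 to 30.5 CPM in Fib-dZeb1. Both thus repeated the order of C3 over a narrower range.

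C1ra and C1s1 encode the proteases of the C1 complex and lie as neighbours on chromosome 6 on opposite strands (GRCm38), C1ra at 124512405 to 124523443 and C1s1 at 124530345 to 124542359, 6901 bases apart. C1ra stood at 165 and 183 CPM in Fib-Ctrl line 1 and at 30.9 and 31.8 CPM in Fib-Ctrl line 2. In Fib-dZeb1 it stood at 58.7 and 28.6 CPM in line 1 and at 37 and 25.9 CPM in line 2. Fib-Ctrl line 1 alone was high, and Fib-Ctrl line 2 lay within the range of the Fib-dZeb1 libraries.

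C1s1 had the same layout, with 334 and 320 CPM in Fib-Ctrl line 1, 66.7 and 54.7 CPM in Fib-Ctrl line 2, 74.3 and 53.1 CPM in Fib-dZeb1 line 1 and 73.6 and 58.6 CPM in Fib-dZeb1 line 2. The ratio of C1s1 to C1ra in TPM stayed between 1.58 and 2.42 over the 8 libraries while both genes changed more than 5-fold between the Fib-Ctrl lines. The mean of C1s1 was 194 ± 154 CPM (SD, n = 4) for Fib-Ctrl against 64.9 ± 10.7 CPM for Fib-dZeb1, and that of C1ra 103 ± 82.8 CPM and 37.6 ± 14.9 CPM.

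The genotype log2 fold change was -1.58 for C1s1 (SE 0.58, adjusted p = 0.0969, edgeR) and -1.45 for C1ra (SE 0.62, adjusted p = 0.143). Dropping Fib-Ctrl line 2 replicate 2 brought C1s1 past the threshold (-1.90, adjusted p = 0.0423). Between the Fib-Ctrl lines both genes fell in line 2, C1s1 by 2.43 (SE 0.20, adjusted p = 0.000909) and C1ra by 2.47 (SE 0.33, adjusted p = 0.00419) on the log2 scale. Between the Fib-dZeb1 lines the differences were 0.05 (SE 0.19, adjusted p = 0.897) and -0.47 (SE 0.31, adjusted p = 0.389), and that of C1ra was -0.90 (adjusted p = 0.0372) once Fib-dZeb1 line 1 replicate 2 was dropped.

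The contrasts by line number again describe pairs of cultures. In line number 1, Fib-dZeb1 lay below Fib-Ctrl by 2.36 for C1s1 (SE 0.20, adjusted p = 0.000558, edgeR) and by 2.0 for C1ra (SE 0.32, adjusted p = 0.00542). In line number 2 the values were 0.12 (SE 0.19, adjusted p = 0.655) and 0.00 (SE 0.31, adjusted p = 0.996). The difference of both contrasts was 2.48 for C1s1 (adjusted p = 0.00234) and 2.0 for C1ra (adjusted p = 0.0254). For C1ra it missed the threshold without any one of the 4 Fib-Ctrl libraries or Fib-dZeb1 line 2 replicate 1, with adjusted p-values of 0.0597 to 0.0895.

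**Figure D4:**
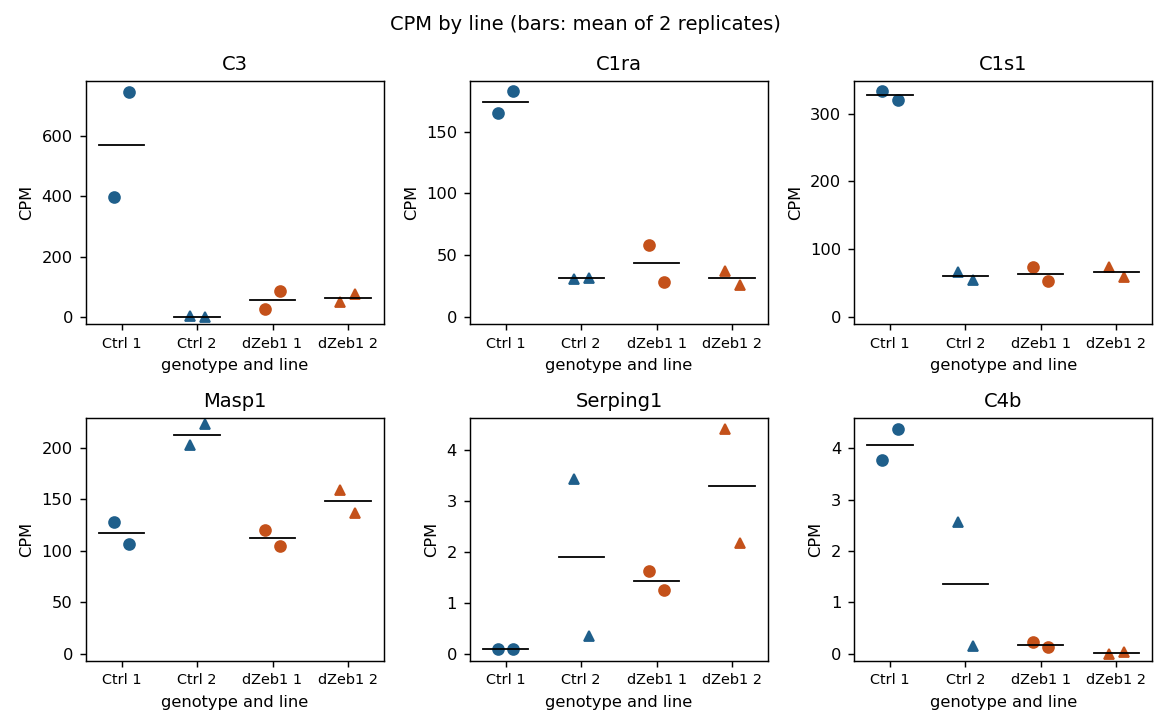
CPM of C3, C1ra, C1s1, Masp1, Serping1 and C4b by genotype and line, with points for the replicates and bars for the mean of 2 replicates. C3, C1ra and C1s1 are high in Fib-Ctrl line 1, Masp1 is highest in Fib-Ctrl line 2, and C4b stays below 0.25 CPM in the Fib-dZeb1 libraries.

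Near-identical copies took few reads. C1rb, C1s2 and C4a, copies of C1ra, C1s1 and C4b, did not exceed 0.154, 0.206 and 0.294 CPM, and Cd55b had no reads. Reads could be assigned wrongly between such copies, but summing them left each of the 5 tested genes where it was. C1ra has a single annotated transcript, so no split was possible, and the leading transcript of C1s1 held 58.5% to 75.4% of the TPM of C1s1.

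Masp1 (chr16:23449417-23520815, minus strand) yields, by alternative splicing, the proteases MASP-1 and MASP-3 and a form without protease domain, MAp44. It was the most evenly expressed gene of the 9, with 128 and 106 CPM in Fib-Ctrl line 1, 202 and 223 CPM in Fib-Ctrl line 2, 120 and 105 CPM in Fib-dZeb1 line 1 and 159 and 137 CPM in Fib-dZeb1 line 2. The genotypes overlapped, with line 2 above line 1 in each. The genotype log2 fold change was -0.34 (SE 0.25, adjusted p = 0.377, edgeR).

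Opposite to C3, C1ra and C1s1, Masp1 was higher in Fib-Ctrl line 2 than in line 1, by 0.86 (SE 0.14, adjusted p = 0.00786, edgeR). That call was lost with replicate 2 of either line dropped (adjusted p = 0.0522 for line 1 and 0.055 for line 2). In line number 2, Masp1 was lower in the Fib-dZeb1 line than in the Fib-Ctrl line by 0.52 (SE 0.14, adjusted p = 0.0276, edgeR). This call was lost without any one of the 4 line 2 libraries and with scaling to library size alone (-0.32, adjusted p = 0.115). In line number 1 the value was -0.06 (SE 0.14, adjusted p = 0.772), and the difference of both contrasts was -0.46 (SE 0.19, adjusted p = 0.149).

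The forms of Masp1 could not be told apart. Of its 4 annotated transcripts only the first was among the transcripts of the deposited data, so all of its reads were assigned to that one. Its length is 2752 bases there and 5345 bases in GENCODE M21. In that annotation another transcript shares 10 of its 11 coding exons with it and ends in a coding exon of 881 bases, so reads from the shared exons belong to either. Masp1 also overlaps Rtp4 on the other strand by 525 bases, and the strand setting of the counting is not given in the sources used here. Rtp4 had 24 to 406 reads per library against 2068 to 4319 for Masp1.

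Serping1 (chr2:84765387-84775444, minus strand) encodes C1 inhibitor, which inactivates C1r and C1s. It was low, with 0.0916 and 0.103 CPM in Fib-Ctrl line 1, 3.44 and 0.361 CPM in Fib-Ctrl line 2, 1.62 and 1.26 CPM in Fib-dZeb1 line 1 and 4.42 and 2.17 CPM in Fib-dZeb1 line 2. Only 2 reads were counted in either library of Fib-Ctrl line 1, the line in which C1ra and C1s1 were highest. The genotypes overlapped through 1 library, Fib-Ctrl line 2 replicate 1. Over all libraries about 258 reads of Serping1 were assigned to its main coding transcript and 30.1 to a non-coding one. The share of the non-coding transcript in the TPM of Serping1 ranged from 0 to 75.8% between libraries.

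The genotype log2 fold change of Serping1 was 1.26 (SE 1.05, adjusted p = 0.439, edgeR), and 3.65 (adjusted p = 0.0229) without Fib-Ctrl line 2 replicate 1. Between the Fib-Ctrl lines it was higher in line 2 by 4.20 (SE 1.20, adjusted p = 0.0483, edgeR). In line number 1 it was higher in the Fib-dZeb1 line than in the Fib-Ctrl line by 3.81 (SE 1.20, adjusted p = 0.0486). Both calls were near the threshold. The first was lost without either library of Fib-Ctrl line 1, Fib-Ctrl line 2 replicate 1 or either library of Fib-dZeb1 line 2 (adjusted p = 0.0695 to 0.254), and the second without either library of Fib-Ctrl line 1 or any one of the 4 Fib-dZeb1 libraries (adjusted p = 0.0652 to 0.194). In line number 2 the value was 0.80 (SE 0.83, adjusted p = 0.497), and 3.17 (adjusted p = 0.0409) without Fib-Ctrl line 2 replicate 1.

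C4b (chr17:34728380-34743882, minus strand) encodes complement C4, which C1s and Masp2 cleave, and it was detected mainly in Fib-Ctrl. Its reads were 82 and 85 in Fib-Ctrl line 1, 44 and 3 in Fib-Ctrl line 2, 5 and 3 in Fib-dZeb1 line 1 and 0 and 1 in Fib-dZeb1 line 2. A single Fib-Ctrl library, line 2 replicate 2, fell among the Fib-dZeb1 libraries. In Fib-dZeb1 line 1 replicate 1, 97.4% of the TPM of C4b came from a short transcript annotated as subject to nonsense-mediated decay, so 5 reads gave 0.688 TPM.

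C4b was too low for the filter of the edgeR fit. Without that filter its log2 fold change was -4.70 (SE 1.06, adjusted p = 0.0218), and -3.17 (SE 0.68, adjusted p = 0.0179) with C4a added. It also entered the tests, as called, with Fib-Ctrl line 2 replicate 2 dropped (-5.12, adjusted p = 0.0106) and with Fib-dZeb1 line 1 replicate 1 dropped (-5.49, adjusted p = 0.0296). Without any one of the other 3 Fib-dZeb1 libraries the adjusted p-values were 0.051 to 0.0708, and with the reads of each line summed it was 0.236.

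Cd55 (chr1:130439027-130462744, minus strand) encodes decay-accelerating factor, a membrane protein that breaks up the C3 convertases. It had 3 and 4 reads in Fib-Ctrl line 1, 15 and 1 in Fib-Ctrl line 2, 0 in both libraries of Fib-dZeb1 line 1, and 202 and 25 in Fib-dZeb1 line 2. A single library, Fib-dZeb1 line 2 replicate 1 with 9.21 CPM, held most of its reads. Over all libraries about 164 reads were assigned to a coding transcript and 70.6 to one that retains an intron. Without the filter the genotype log2 fold change was 3.02 (SE 1.61, adjusted p = 0.294, edgeR).

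The alternative route's factors B and D had few or no reads. Cfb (chr17:34856374-34862518, minus strand), which encodes factor B, had 15 reads in all, 0 to 5 per library, with 5 in Fib-Ctrl and 10 in Fib-dZeb1. Without the filter its log2 fold change was 0.66 (SE 1.30, adjusted p = 0.76, edgeR). Cfd (chr10:79890853-79892655, plus strand) encodes factor D (adipsin), the protease that cleaves factor B. It had 0 reads in each of the 8 libraries, which allows up to 3 reads, or 0.118 to 0.16 CPM, for counting error only. Of its 2 annotated transcripts 1 was among the transcripts of the deposited data, so the count covers that one only. Adipocyte markers did not all go the same way. Adipoq did not exceed 0.0419 CPM, whereas Lpl lay at 4.39 to 50.1 CPM and Pparg at 5.27 to 33.5 CPM.

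A list of 53 other complement genes was examined beside these, of which 11 passed the filter. Of the 42 that did not, 17 had no reads at all, among them Mbl1, Mbl2, C6, C7, C8a, C8b, C9, Cfi and Vtn, and 38 of the 53 stayed below 1 CPM in every library. C1qa, C1qb and C1qc, which encode the recognition subunit that C1r and C1s bind to, had reads only in Fib-Ctrl line 2 replicate 1, with C1qb at 0.408 CPM. C2, the other substrate of C1s, lay between 0.103 and 0.823 CPM for Fib-Ctrl against 0.0419 to 0.147 CPM for Fib-dZeb1.

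Of the 11 tested genes of that list, 2 rose and 1 fell with Zeb1 loss, beside 7.54% of all tested genes called higher and 8.65% called lower. Their median log2 fold change was -0.16, against -0.005 over all tested genes. The soluble regulator Clu (clusterin), which binds terminal complexes, had 3.25 and 2.88 CPM in Fib-Ctrl line 1, 0.932 and 0.31 CPM in Fib-Ctrl line 2, 33.5 and 57.3 CPM in Fib-dZeb1 line 1 and 24.2 and 34.2 CPM in Fib-dZeb1 line 2. The genotypes did not overlap. Clu rose by 4.32 on the log2 scale (SE 0.63, adjusted p = 0.00511, edgeR), by 3.88 in line number 1 and 5.58 in line number 2, and was called with each library left out.

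Masp2, the lectin pathway protease that cleaves C4 and C2, had 0.155 to 1.11 CPM in the Fib-Ctrl libraries, 5.2 and 5.19 CPM in Fib-dZeb1 line 1 and 1.64 and 1.69 CPM in Fib-dZeb1 line 2, with no overlap. It rose by 2.38 (SE 0.65, adjusted p = 0.0392, edgeR), but with 1 library left out the adjusted p was 0.0462 for Fib-dZeb1 line 2 replicate 1 and 0.0547 to 0.0941 for each of the other 7. With the replicate block the adjusted p was 0.0541. Masp2 overlaps Tardbp on the other strand by 3118 bases, and Tardbp had 3094 to 3952 reads per Fib-Ctrl library against 5283 to 7200 per Fib-dZeb1 library. Its part in the Masp2 reads was not tested.

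Cr1l (Crry), the membrane regulator of C3 convertases in rodents, had 49.1 and 40.1 CPM in Fib-Ctrl line 1, 71.3 and 63.4 CPM in Fib-Ctrl line 2 and 32.9 to 39 CPM in Fib-dZeb1, with no overlap. It fell by 0.63 (SE 0.18, adjusted p = 0.043, edgeR) and kept the call only without Fib-Ctrl line 1 replicate 2 (adjusted p = 0.0186), with adjusted p-values of 0.0568 to 0.115 without each of the other 7. With the replicate block the adjusted p was 0.0537. The genotype values of the most abundant others were -0.16 for Calr (adjusted p = 0.353), a chaperone that binds C1q, -0.66 for the scavenger collectin Colec12 (adjusted p = 0.101), 0.11 for C1qbp (adjusted p = 0.678), -0.95 for Cd59a, which blocks the membrane attack complex (adjusted p = 0.136), and -1.11 for the C1r-like protease C1rl (adjusted p = 0.0976). Csmd3, Cfp (properdin) and C3ar1, the receptor for C3a, had -0.96, 0.60 and 0.02 with adjusted p-values of 0.505, 0.308 and 0.991. C3ar1 ran opposite to its ligand's gene between the Fib-Ctrl lines, rising from 0.137 and 0.412 CPM in line 1 to 3.79 and 6.76 CPM for line 2, a difference of 4.26 (SE 0.59, adjusted p = 0.00492).

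**Figure D5:**
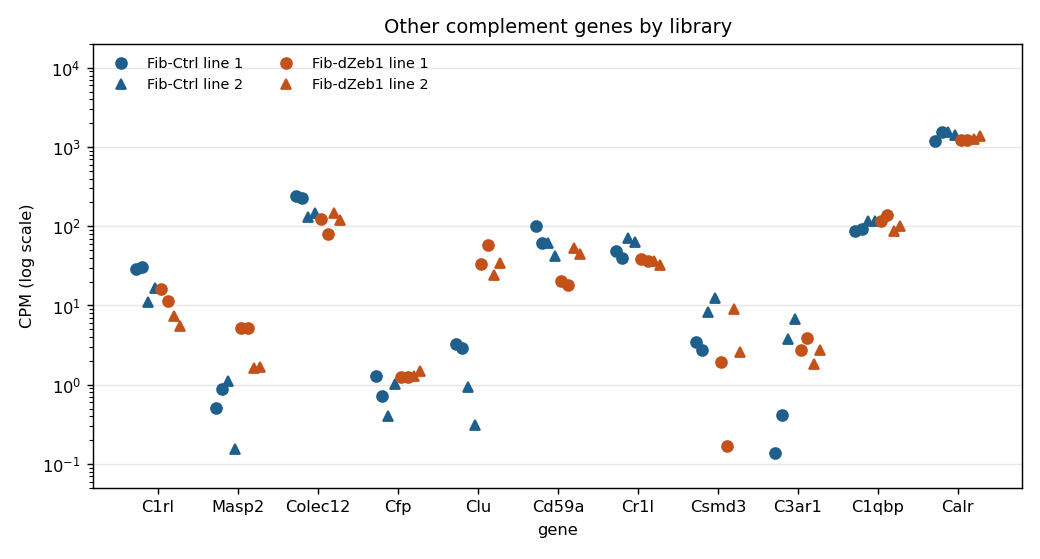
CPM on a log scale of the 11 other complement genes that were tested, in each library, with blue for Fib-Ctrl, orange for Fib-dZeb1, circles for line 1 and triangles for line 2. Clu lies at 0.31 to 3.25 CPM for Fib-Ctrl and 24.2 to 57.3 CPM for Fib-dZeb1, and Masp2 and Cr1l also show no overlap. The same holds for 24.3% of all tested genes.

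Cytokines, receptors and transcription factors known to raise complement transcription formed a list of 26 genes, of which 19 were tested. Il1b, Tnf, Osm and Ifng had no reads in any library. With Zeb1 loss 1 rose and 5 fell, beside the same 7.54% and 8.65% of all tested genes, with a median log2 fold change of -0.26 against -0.005. The NF-kB subunit gene Nfkb1 rose by 0.53 (adjusted p = 0.0256, edgeR), and the oncostatin M receptor gene Osmr fell by 1.61 (adjusted p = 0.0136) and was called with each library left out, but not with a correlation within lines (adjusted p = 0.0791, limma-voom) or with the reads of each line summed (adjusted p = 0.231). Under those 2 alternatives the other 5 missed the threshold too. Also lower were Cebpb, which encodes a C/EBP protein (-1.05, adjusted p = 0.025), the TNF receptor gene Tnfrsf1a (-0.87, adjusted p = 0.0224), Stat3 (-0.74, adjusted p = 0.0397) and the liver X receptor gene Nr1h2 (-0.45, adjusted p = 0.0244).

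These calls leaned on single libraries to different degrees. For Tnfrsf1a the adjusted p rose to at most 0.0617 when replicate 2 of either Fib-dZeb1 line was dropped, and for Cebpb to at most 0.0747 when either library of Fib-dZeb1 line 2 was. Nr1h2 missed the threshold without either library of Fib-Ctrl line 1 or of Fib-dZeb1 line 2, up to 0.0654. Nfkb1 did so without either library of Fib-Ctrl line 2, Fib-dZeb1 line 1 replicate 2 or either library of Fib-dZeb1 line 2, up to 0.0741. Stat3 kept its call when Fib-Ctrl line 2 replicate 2 or else Fib-dZeb1 line 1 replicate 1 was dropped, with adjusted p-values up to 0.107 in the other 6 cases.

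Between the Fib-Ctrl lines 10 of these 19 genes were lower in line 2 and 0 higher, beside 17.0% of all tested genes called in this contrast, among the former Relb, Il6st, Osmr, Nfkb2, Il6 and Il1r1. That is the line in which C3, C1ra and C1s1 were also lower. Il6st, the signalling chain shared by receptors of the interleukin 6 family, stood at 990 and 993 CPM in line 1 against 438 and 381 CPM, and Nfkb2 at 116 and 170 CPM against 53.8 and 55 CPM. In the Fib-dZeb1 libraries Il6st lay at 338 to 390 CPM and Nfkb2 at 94 to 144 CPM. The part of the listed genes in the complement levels was not tested. Between the Fib-dZeb1 lines 1 of the 19, Il6, was lower in line 2, beside 6.87% of all tested genes called.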

How the data were processed

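Libraries of polyadenylated RNA were made from total RNA with random hexamer priming. The submitters' processing notes name STAR and Salmon with GRCm38. The study names the nf-core RNA-seq pipeline. Versions of STAR and Salmon, and the strand setting, are not stated in the sources used here. The deposited tables hold, per transcript, the authors' estimated counts of reads, without normalization, and the deposited TPM. Both were summed to genes with GENCODE M21, which matched 98.72% of the transcripts, and estimated counts were rounded. Unmatched transcripts held 0.262% to 0.303% of reads. Lengths of some transcripts in the tables differ from GENCODE M21, so the annotation used by the authors may be another one.

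Genotypes were compared with edgeR 4.0.16 (quasi-likelihood test, R 4.3.3) on 12963 genes past edgeR's expression filter, with TMM scaling and Benjamini-Hochberg adjustment over all of them at 0.05. This is an unblocked fit of 4 against 4 libraries. Differences between replicates 2 and 1 of a line correlated over genes with those of each other line (r = 0.137 to 0.338 in all 6 pairs of lines), so the replicate numbers of the labels were taken to pair libraries, as seen in the data and not stated in the labels, and the value with a replicate block is given where it changes a call. A second fit gave each of the 4 lines its own mean. Alternatives used DESeq2 1.42.0 and limma 3.58.1, among others. The genotype fit was tested on simulated counts without a difference between lines, so that test does not cover the line contrasts. Counts of replicate libraries varied beyond what sampling gives. Shares and floors cover counting error only. The study's authors tested these data with DESeq2, and their comparison values were not used.

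The 9 genes, the other lists and the rules were chosen with earlier results of these data known. The text names the 9 genes, their near-identical copies, other complement genes past the threshold and the most abundant of the rest, listed regulators past the threshold, and the 5 genes most like C3. Genes named as undetected, C2, Il6st and Nfkb2 are named beyond it, picked once their values had been seen. Values of some listed genes are not reported here.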

Additional observations from a re-analysis of the deposited data

Results flagged for a closer look

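The log2 fold change of genotype differed between line numbers for C3 (difference 8.69), C1s1 (2.48) and C1ra (2.0), each tested as a difference of contrasts in edgeR. It also differed for Colec12 (1.13, adjusted p = 0.0414), Cd59a (2.01, adjusted p = 0.0141), Cr1l (-0.73, adjusted p = 0.0398), C3ar1 (-4.80, adjusted p = 0.00871) and C1qbp (-0.82, adjusted p = 0.0229). Same-numbered lines are not known to be paired, so such a difference is also the Fib-dZeb1 line contrast minus the Fib-Ctrl line contrast. For C3, C1s1 and C1ra these contrasts were 0.14, 0.05 and -0.47 in Fib-dZeb1 against -8.54, -2.43 and -2.47 in Fib-Ctrl. The differences of these genes thus mainly restate the gap between the Fib-Ctrl lines. With each library left out, C3ar1 kept its call throughout (adjusted p = 0.00818 to 0.0405). Cd59a lost it with Fib-Ctrl line 2 replicate 2 dropped (1.77, adjusted p = 0.0502) and with Fib-dZeb1 line 2 replicate 1 dropped (1.87, adjusted p = 0.0556). Colec12 and C1qbp kept it only without either library of Fib-dZeb1 line 1, and Cr1l only with Fib-Ctrl line 1 replicate 1 or else Fib-dZeb1 line 1 replicate 2 dropped, with adjusted p-values of up to 0.141, 0.101 and 0.138 otherwise.

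Among the members and the other tested complement genes, 3 of 38 groups of 4 libraries had 1 library far from the rest by Dixon's criterion, which chance alone meets in about 1 of 20 groups. Serping1 stood at 3.44 CPM in Fib-Ctrl line 2 replicate 1, against at most 0.361 CPM in the other Fib-Ctrl libraries. Cd55 stood at 9.21 CPM in Fib-dZeb1 line 2 replicate 1, against at most 0.918 CPM in the other Fib-dZeb1 libraries. Cfp stood at 1.47 CPM in Fib-dZeb1 line 2 replicate 2, against 1.24 to 1.28 CPM in the others.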

How the results depend on the processing

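In the comparison of genotypes, 0 members were called in either direction. The count of members called lower became 1, C4b, without the filter on low counts and with near-identical copies summed. With 1 library left out, 0 to 1 members were called higher and 0 to 2 lower. The sign of C3 turned to 1.15 with limma on TPM, 1.04 with limma-voom and 0.62 with the line block. The arithmetic means of C3 in both genotypes have the opposite order to the geometric means, as given above. With a replicate block C3 was at -2.26, C1s1 at -1.59, C1ra at -1.51, Serping1 at 1.70 and Masp1 at -0.34, with 0 members called. Under the block Masp2 (adjusted p = 0.0541) and Cr1l (adjusted p = 0.0537) missed the threshold, and no other call reported here changed. Libraries of the same line and replicate number in both genotypes deviated from their genotype means with correlations of 0.203, -0.0395, -0.041 and 0.0687, so line numbers were not taken to pair libraries. Clu was called in 8 of 9 alternatives, all but the one that summed the reads of each line (4.36, adjusted p = 0.193), where Zeb1 also missed the threshold (adjusted p = 0.0622). Masp2 was called in 6 of 9 and Cr1l in 3 of 9. Of the listed regulators, Osmr, Tnfrsf1a, Nfkb1 and Cebpb were called in 7 of 9 alternatives, all but limma-voom and summed lines. Stat3 and Nr1h2 were called in 5 of 9, also missing the threshold with library size alone (adjusted p = 0.0763 and 0.107) and with limma on TPM (0.0954 and 0.118).

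Leaving out each library and dropping the filter were added to the line contrasts after the data had been seen. With 1 library left out, the Fib-Ctrl line contrast had 0 to 2 members higher and 3 lower in line 2, and the Fib-dZeb1 line contrast 0 higher and 0 to 1 lower. Line number 1 had 0 to 1 higher and 3 to 4 lower, line number 2 had 1 to 2 higher and 0 to 2 lower, and the difference of contrasts 2 to 3 higher and 0 to 1 lower. A lone library of a line was assumed to vary like the others. Without the filter, the Fib-Ctrl line contrast also had C4b called lower in line 2 (-1.6, adjusted p = 0.0299, edgeR). In the same fit the Fib-dZeb1 line contrast had 1 higher, Cd55, and 1 lower, C1ra. Line number 1 had 5 lower, and line number 2 had 2 higher and 2 lower. The difference of contrasts also had Cd55 called higher, and had 1 lower, Serping1. Fitted changes of Cd55 there are set against a line without reads and are no bound. With library size alone, line number 2 had 0 members lower and Masp1 in line number 1 turned to 0.09. With 1 library left out, the Fib-dZeb1 line contrast ranged from -0.45 to 1.17 for C3, from -0.90 to 0.13 for C1ra and from -0.17 to 0.31 for C1s1. In line number 1 Masp1 ranged from -0.19 to 0.06, and in line number 2 C1s1 ranged from -0.05 to 0.28, C1ra from -0.27 to 0.24 and Serping1 from -0.07 to 3.17.

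Over all genes, 978 were called higher and 1121 lower, 46.6% of calls higher. Library size alone moved the median of all tested genes to 0.17 and the calls to 2272 and 719 (76.0% higher), and limma on TPM gave 1984 and 725 (73.2% higher). DESeq2 gave 1544 and 1670, limma-voom 114 and 146, and summed lines 9 and 7. With 1 library left out, 476 to 1011 genes were higher and 508 to 1141 lower.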
